A study of Homo sapiens with 12 samples.

Results

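The cytosolic ribosomal protein genes encode the protein part of the small and the large ribosomal subunit, the particles that translate the mRNA of the cell nucleus. They were picked by name. A probe set counted when its platform annotation held a single symbol, and that symbol was RPL or RPS with a number (a closing A or X was allowed), one of the stalk proteins RPLP0 to RPLP2, RPSA or FAU. Kinases of the RPS6K family, pseudogenes, Y-linked copies and paralogs whose symbol closes with L stayed out. This gave 53 genes of 19775 measured, 21 of the small and 32 of the large subunit, with 112 of the 41091 probe sets that had 1 symbol. Such names belong to 78 genes of a human RefSeq list. The other 25, among them RPLP0, RPL5, RPL10, RPL13A, RPL23, RPS27A and RPSA, had no probe set with their symbol alone and are not analysed here. For 12 of those 25, a set named nothing else but small nucleolar RNA or microRNA genes. Each gene is represented by its brightest probe set, judged by the average of the 12 arrays, unless another set is named.

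Expression was measured on 12 one-colour arrays, 1 per sample, in TC32 and TC71. Both are established human lines of Ewing sarcoma, a tumour driven by a fusion of EWSR1 with an ETS factor, usually FLI1. The 4 groups were TC32 with mithramycin, TC32 with solvent (control), TC71 with mithramycin and TC71 with solvent, with 3 arrays each that the labels call biological replicates. Mithramycin, an antitumour antibiotic that attaches to the minor groove of GC-rich DNA, was given at 100 nM for 6 h. The deposited values are log2 signals from robust multi-array averaging, which forces arrays towards 1 distribution, so a change is relative to the other genes of the array. In RNA of whole dishes, fewer cells and less RNA per cell cannot be told apart.

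The lowest correlation between replicate arrays was 0.9948, with array medians from 4.38 to 4.47 and highest values from 13.69 to 13.79. Of 7 Ewing sarcoma markers 6 were measured, all with a mean above the array median, from 4.13 to 12.20 (CD99, a surface protein used in diagnosis, was at 10.95 or higher). Of 3 epithelial markers 0 were above it. Blood markers ran from 2.16 to 5.40 (1 of 3 above), endothelial ones from 3.54 to 5.29 (1 of 2), muscle ones from 4.33 to 5.37 (2 of 2) and fibroblast ones from 3.75 to 11.58 (3 of 3, with COL3A1 highest). Their part in the results was not tested. The 3′ minus 5′ signal of beta-actin, a measure of RNA integrity, averaged 0.60 ± 0.08 with mithramycin against 0.71 ± 0.04 with solvent in TC32, and 0.88 ± 0.10 against 1.45 ± 0.48 in TC71 (SD, n = 3 each). TC71 control replicate 1 stood apart at 2.0.

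Most ribosomal proteins are present once in each ribosome, the stalk proteins RPLP1 and RPLP2 more often, and the mRNAs of all of them are abundant and long-lived in growing cells. Most human ribosomal protein mRNAs start with a C followed by a run of pyrimidines, the terminal oligopyrimidine (TOP) tract. Through this tract mTOR and the RNA-binding protein LARP1 control their translation and stability together. Some of these proteins also bind the p53 regulator MDM2 when ribosome assembly is disturbed, and mutations of several cause Diamond-Blackfan anaemia.

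The tract is what the genes share in sequence, so start sites are shown for the 3 genes that rose most with mithramycin, for 3 that differed most between the lines, and for RPL6, where no listed start has the tract. RPL6 was chosen after the sequences were seen. Each run of 30 bases is 5′ to 3′ on the gene's strand, from the RefSeq promoter table for GRCh38.p14, with the annotated start at base 16. Capitals mark the pyrimidine run from the start on.
RPL36 (chr19:5690280-5690309, plus strand): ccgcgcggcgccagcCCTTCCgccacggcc
RPS25 (chr11:119018329-119018358, minus strand): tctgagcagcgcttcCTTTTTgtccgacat
RPL38 (chr17:74203663-74203692, plus strand): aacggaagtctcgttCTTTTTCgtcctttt
RPL36A (chrX:101390996-101391025, plus strand): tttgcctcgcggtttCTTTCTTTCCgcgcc
RPL39 (chrX:119791616-119791645, minus strand): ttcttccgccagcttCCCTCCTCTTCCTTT
RPL18 (chr19:48619164-48619193, minus strand): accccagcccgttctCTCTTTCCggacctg
RPL6 (chr12:112411428-112411457, minus strand): tatttgtatcctcagtgaatcagaaccaga
The run is 6 bases in RPL36 and in RPS25, 7 in RPL38, 10 in RPL36A and 8 in RPL18, and it fills all 15 bases shown after the start in RPL39. Genes with no listed start of a C and 4 or more pyrimidines were found in both sets as well, with RPS7, RPL32 and RPS29 among those that rose and RPL6 and RPL27 among those that differed between the lines.

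Promoters of 47 of the 53 genes were in the table, 6 of them with several starts. At least 1 start with a C followed by 4 or more pyrimidines was listed for 35 of the 47 (74.5%), against 1404 of all 27305 genes (5.14%). The motif CTTTC, which overlaps the tract, lay within 15 bases of the start on the gene strand in 25 (53.2%, against 5.49% of all genes). In the whole promoter window, on either strand, the ETS motif CCGGAAG was found in 17 (36.2%, against 12.2%), TCTCGCG in 9 (19.1%, against 4.17%) and the YY1 motif AAGATGGC in 5 (10.6%, against 3.52%). The GC box GGGCGG was found in 27 (57.4%, against 48.3%) and TATAA in 9 (19.1%, against 24.2%), and these motifs can overlap each other. A match is a string of letters, not a bound site. Among the 44 of these genes that averaged 12 or more, the median mithramycin effect was 0.05 with the tract (32 genes, 6 called) and 0.06 without it (12 genes, 3 called), on the log2 scale and with no test.

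The genes lie at the top of the signal range. Of the 53, 50 had a mean of at least 12 and 28 a mean of at least 13, and they made up 66.7% of the 42 genes of the array at 13 or more. Arrays agreed closely there. The median residual SD was 0.021 for the ribosomal protein genes against 0.108 for all genes. RPL41, which encodes a very short basic peptide of the large subunit, gave the array's highest value on several arrays, with 13.69, 13.69 and 13.71 in TC32 with mithramycin and 13.68, 13.68 and 13.67 in TC32 controls. In TC71 it had 13.79, 13.79 and 13.76 with mithramycin and 13.73, 13.76 and 13.75 in controls. RPL37A and RPS18 followed with all arrays between 13.39 and 13.67. Whether signals this close to the top are compressed was not tested. The 3 genes below 12 were RPL27A, RPLP2 and RPL36A, with means of 7.05, 5.41 and 3.58. Signals of different probe sets are not amounts, so this order ranks probe sets and not transcripts.

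With mithramycin the ribosomal protein mRNAs moved little and mostly upward. In TC32, RPL36, RPS25 and RPL34 rose (3 of 53 called higher and 0 lower), where 25.6% of all genes were called higher and 19.4% lower. In TC71 RPL36 rose (1 higher, 0 lower), against 19.4% and 16.1% of all genes. In the 2-line average, the mean of both effects, 9 genes rose and 0 fell, against 32.9% and 20.9%. A call is an adjusted p under 0.05 in limma, with Benjamini-Hochberg adjustment over all genes, and with an unadjusted p under 0.05 there were 8, 3 and 13 genes, against 10317, 8709 and 11698 of all 19775. The median effect was 0.06 in TC32, 0.04 in TC71 and 0.05 in the mean, a rise of 3.23%, against 0.08, 0.07 and 0.08 for all genes. For 48 genes in TC32 and 50 in TC71 the 95% interval of the effect lay inside a 1.2-fold change in either direction, as it did for 19.1% and 24.2% of all genes. For the 2-line average it did for 51 of 53, against 37.2%. Among the 106 other genes averaging 12 or more it did for 83 in TC32, 97 in TC71 and 102 in the 2-line average.

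Other bright genes had a similar median effect, but their effects had a median size of 0.07 against 0.05 and were called more often. Among the 106 other genes that averaged 12 or more, 28.3% were called higher and 9.43% lower in the 2-line average, with a median of 0.05. The ribosomal protein genes of that level had 9 of 50 called higher and 0 lower, also with a median of 0.05. The other genes were mostly less bright. From 12 to 13, 31.8% of 22 ribosomal protein genes and 40.2% of 92 others were called in either direction. From 13 to 14 these shares were 7.14% of 28 and 21.4% of 14. The median size of the effect was 0.065 for ribosomal protein genes and 0.072 for others from 12 to 13. From 13 to 14 it was larger for the ribosomal protein genes, at 0.037 against 0.024. Signal of genes averaging 12 or more can fall by more. Mitochondrially encoded ATP6 averaged 12.32 ± 0.03 with mithramycin against 12.87 ± 0.07 with solvent in TC32, and 12.35 ± 0.04 against 13.23 ± 0.13 in TC71 (SD, n = 3 each), and ND4 and COX2 changed by -0.53 and -0.44 in the 2-line average. These genes were chosen after their values were seen.

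Small as they were, the differences often exceeded the spread between arrays. In TC32 all 3 mithramycin arrays were above all 3 control arrays for 31 genes, below for 1 and overlapping for 21, where 30% of all genes were above and 20.8% below. In TC71 they were above for 32, below for 2 and overlapping for 19, against 30.8% and 20.6%. For 22 genes the mithramycin arrays were above in both lines, which was not counted for all genes. The exception below in TC32 was RPS9, with 12.32, 12.34 and 12.33 with mithramycin against 12.36, 12.37 and 12.40 with solvent, while its TC71 arrays overlapped. In TC71 RPL3 and RPL10A were below, with effects of -0.05 each. RPS9, RPL3 and RPL10A were named after their values were seen, and none of the 3 was called.

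**Figure D1:**
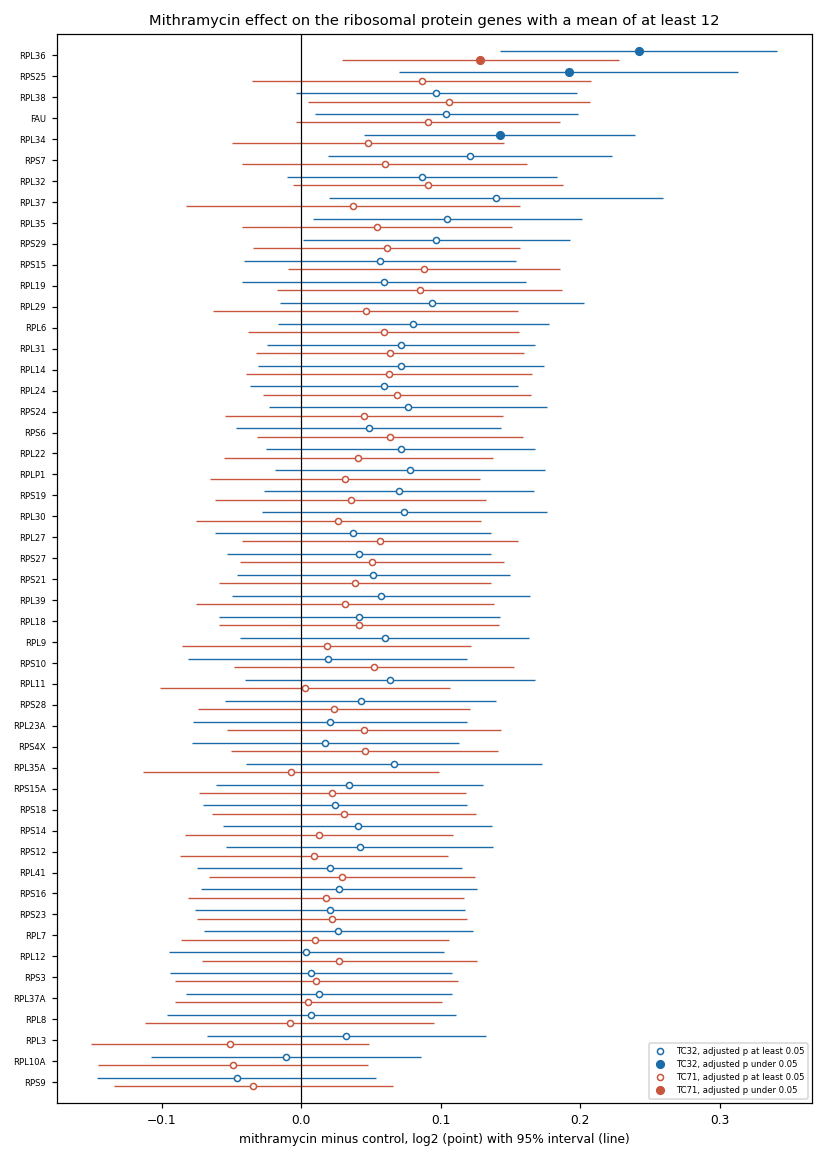
Mithramycin minus control in log2 units (x axis) for the 50 ribosomal protein genes averaging 12 or more (rows, ordered by the 2-line average), as points with 95% intervals, blue for TC32 and red for TC71, filled where the adjusted p was under 0.05 (n = 3 arrays per group). Most points lie right of 0, and only RPL36, RPS25 and RPL34 are filled.

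RPL36, a protein of the large subunit, rose most. It had 12.03, 12.03 and 12.08 in TC32 with mithramycin against 11.83, 11.81 and 11.77 in TC32 controls, and 12.17, 12.17 and 12.19 in TC71 with mithramycin against 12.06, 12.03 and 12.06 in TC71 controls. The groups did not overlap in either line, and TC32 controls were the lowest. The effect was 0.24 ± 0.05 in TC32 (adjusted p = 0.000998) and 0.13 ± 0.05 in TC71 (adjusted p = 0.0456), each with the standard error of the limma model. In the 2-line average it was 0.19 ± 0.03, or 1.14-fold (adjusted p = 0.00042).

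RPS25, a protein of the small subunit that some viral mRNAs need to start translation internally, had 12.79, 12.97 and 12.86 with mithramycin against 12.66, 12.73 and 12.65 with solvent in TC32. In TC71 it had 12.82, 12.86 and 12.87 with mithramycin against 12.76, 12.78 and 12.74 with solvent. Again the groups were apart in both lines, and TC32 mithramycin replicate 2 was the highest array. The effect was 0.19 ± 0.06 in TC32 (limma, adjusted p = 0.0147), 0.09 ± 0.06 in TC71 (adjusted p = 0.26) and 0.14 ± 0.04 in the mean (adjusted p = 0.0107).

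RPL38, a large-subunit protein that in mice is needed to translate a set of Hox mRNAs, had 12.50, 12.53 and 12.52 with mithramycin against 12.40, 12.43 and 12.43 with solvent in TC32, and 12.59, 12.56 and 12.61 against 12.50, 12.43 and 12.50 in TC71. All mithramycin arrays were above the controls of their line, and the mean effect was 0.10 ± 0.03 (limma, adjusted p = 0.0207). FAU encodes a ubiquitin-like protein fused to a small-subunit protein. It had 12.31, 12.30 and 12.32 with mithramycin against 12.20, 12.22 and 12.20 with solvent in TC32, and 12.28, 12.27 and 12.29 against 12.20, 12.18 and 12.18 in TC71. Here too the groups were apart, with a mean effect of 0.10 ± 0.03 (adjusted p = 0.0181).

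RPL34, of the large subunit, had 12.57, 12.60 and 12.62 with mithramycin against 12.43, 12.47 and 12.46 with solvent in TC32, and 12.55, 12.57 and 12.56 against 12.53, 12.51 and 12.50 in TC71. The groups were apart in both lines, by less in TC71. Its effect was 0.14 ± 0.04 in TC32 (limma, adjusted p = 0.0213) and 0.09 ± 0.03 in the mean (adjusted p = 0.0235). RPS7, one of the MDM2-binding proteins, RPL32, RPL35, a protein at the exit of the peptide tunnel, and RPS29, mutated in some families with Diamond-Blackfan anaemia, rose in the mean alone, by 0.09, 0.09, 0.08 and 0.08 (SE 0.03 each). Their adjusted p-values were 0.0362, 0.0316, 0.0488 and 0.0488. Most alternative settings ended these calls. RPS7 kept its call in 6 of 20, RPL32 in 8 of 20, RPL35 in 3 of 21 and RPS29 in 4 of 21. Centring on housekeeping genes turned the sign of all 4. The other called genes lost theirs in some settings. RPL36 and RPS25 kept it in 18 of 20 each, FAU in 16 of 20, RPL38 in 14 of 20 and RPL34 in 13 of 21. Their lowest mean effects were 0.091, 0.045, 0.004, 0.008 and 0.001. For all 9 genes the mithramycin arrays were above the controls in both lines.

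**Figure D2:**
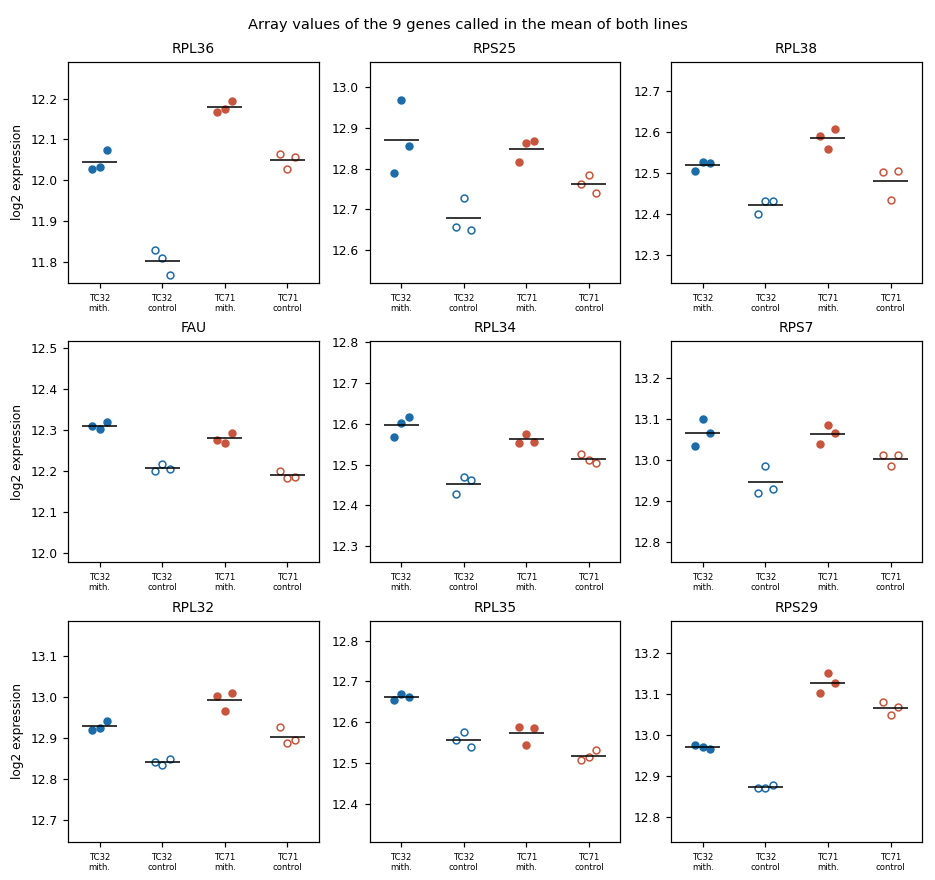
Log2 expression (y axis) of the 9 genes called in the 2-line average, 1 point per array and a bar for each group mean, with mithramycin (filled) left of control (open) for TC32 (blue) and TC71 (red). Each panel spans the same log2 range, and in each the mithramycin arrays lie above the controls of their line.

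Of the 9 measured genes listed by name for a known role, whatever their values, FAU was called in the 2-line average and the other 8 were not. RPL11, which with RPL5 and ribosomal RNA binds MDM2, had 12.85, 12.94 and 12.91 with mithramycin against 12.83, 12.86 and 12.83 with solvent in TC32, where 1 mithramycin array lay within the controls' range, and its arrays overlapped in TC71 as well. RPS6, the target of S6 kinase, had 13.32, 13.32 and 13.31 against 13.27, 13.28 and 13.25 in TC32, and 13.16, 13.16 and 13.16 against 13.07, 13.09 and 13.11 in TC71. Its groups were apart in both lines, with a mean effect of 0.06 ± 0.03 that missed the threshold (limma, adjusted p = 0.144).

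RPS19, the gene most often mutated in Diamond-Blackfan anaemia, RPL22, RPS27 and the stalk protein RPLP1 had groups apart in both lines too, with mean effects of 0.05, 0.06, 0.05 and 0.05 that were not called. RPS3, a protein at the mRNA entry that also takes part in DNA repair, overlapped in both lines with a mean effect of 0.01 ± 0.03. The other stalk protein, RPLP2, overlapped in both lines on a dim set, and its interval from -0.24 to 0.22 allows changes larger than those of the bright genes. RPL36A and RPL27A, also dim, had mean effects of 0.16 and 0.13 that were not called.

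In the 2-line average 4 of 21 small-subunit genes and 5 of 32 large-subunit genes rose, and 0 of either fell, against 32.9% higher and 20.9% lower of all genes, with median effects of 0.04 and 0.05. Of the 53 effects, 50 were above 0 in TC32 and 48 in TC71, against 12485 and 12470 of all 19775. The effects of the lines share no arrays. Across the 53 genes they correlated at 0.53, against 0.76 across all genes, as a description, since the genes share their arrays and normalization.

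The counts rest on the error model and the scaling. The fit draws each gene's spread towards 1 value for all genes, whose residual SD is mostly larger than that of ribosomal protein genes. When it was drawn towards genes of like brightness instead, with robust estimation, 28 genes were called higher and 0 lower in the 2-line average, against 32.5% and 21.5% of all genes. When arrays were centred on housekeeping genes, 0 were called higher and 3 lower, against 27.5% of all genes lower, and the members' median became -0.05. That centring shifted the median of all genes by -0.09 in the 2-line average and by -0.10 in TC71, and centring on hybridization controls shifted it by -0.16 in TC32 and by 0.08 in TC71. Under these scalings the ribosomal protein median stayed 0.03 below the median of all genes in each line, because a centring moves every gene alike. When only genes averaging 6 or more were tested it was 0.04 above their median in TC32 and 0.01 above it in TC71. Whether the genes rose in absolute terms is thus not set by these data.

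No gene was called for the difference of the effects (TC71 effect minus TC32 effect) in limma, where 9.99% of all genes were called, and 0 had an unadjusted p under 0.05. Estimates ran from -0.11 for RPL36 to 0.13 for the dim set of RPL36A. For 48 of 53 the interval of this difference lay inside a 1.2-fold change. It did so for 2756 of all 19775 genes and for 88 of the 106 other genes averaging 12 or more. The 3 calls in TC32 and 1 in TC71 therefore show no tested difference between the lines.

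Between the lines themselves the median size of the log2 difference was 0.09. For the effect of mithramycin it was 0.06 in TC32, 0.05 in TC71 and 0.05 in the 2-line average. Among all genes these sizes were larger too, at 0.23 between the lines and 0.20, 0.16 and 0.17 with mithramycin. In TC71 controls 5 genes were higher and 14 lower than in TC32 controls, where 26.7% of all genes were higher and 24.8% lower, and where 38.7% and 25.5% of the 106 other bright genes were. All 3 TC71 control arrays were above all TC32 control arrays for 19 genes, below for 25 and overlapping for 9, against 29.7% above and 29.3% below among all genes. Centred on housekeeping genes, 35 genes were higher and 3 lower, against 45.4% of all genes higher, and the median of all genes shifted by 0.21. The values that follow are as deposited.

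RPL39, a small protein in the wall of the peptide tunnel, had 12.93, 12.97 and 12.93 in TC71 controls against 13.34, 13.45 and 13.40 in TC32 controls. It was lower by a log2 difference of -0.45 ± 0.05, or 0.73-fold (limma, adjusted p = 4.64e-06). RPL18 had 12.55, 12.59 and 12.56 in TC71 controls against 12.91, 12.98 and 12.96 in TC32 controls, a difference of -0.39 ± 0.05 (adjusted p = 1.22e-05). The lines did not overlap for either gene. RPL8, a protein next to the peptidyl transferase centre, had 12.55, 12.49 and 12.56 against 12.82, 12.85 and 12.86. RPL23A, which receives the signal recognition particle at the tunnel exit, had 13.26, 13.20 and 13.22 in TC71 controls against 13.55, 13.51 and 13.51 in TC32 controls. RPL8 and RPL23A were lower in TC71 by -0.31 ± 0.05 and -0.30 ± 0.04 (adjusted p = 9.70e-05 and 9.57e-05).

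RPL27, RPL19 and RPL6, also of the large subunit, were lower in TC71 controls by -0.28, -0.27 and -0.26 (SE 0.05, 0.05 and 0.04), with no overlap of arrays. RPL36A, of the large subunit, had the widest difference on its dim set, with 2.90, 2.93 and 3.22 in TC71 controls against 3.85, 4.03 and 4.05 in TC32 controls (-0.96 ± 0.10, limma, adjusted p = 2.41e-06). A signal this far below the array median can be near background, which was not tested. The widest small-subunit differences were smaller, with RPS29 highest at 0.19 ± 0.04, RPS6 lowest at -0.17 ± 0.04 and RPS3 at -0.16 ± 0.05. The median size was close, at 0.087 for the 21 small-subunit genes and 0.097 for the 32 large-subunit genes. Of the small-subunit genes 2 were called higher and 5 lower, and of the large-subunit genes 3 and 9, against 26.7% and 24.8% of all genes.

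The 5 genes higher in TC71 controls were RPL36, RPL12, RPS29, RPL37 and RPS24, at 0.25, 0.20, 0.19, 0.15 and 0.14. Most line differences were there with mithramycin as well. The TC71 arrays were above the TC32 arrays for 14 genes, below for 27 and overlapping for 12 in the mithramycin groups. This was not counted for all genes. RPL36, RPL12, RPS29 and RPS24 were among those above, while RPL37 overlapped.

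**Figure D3:**
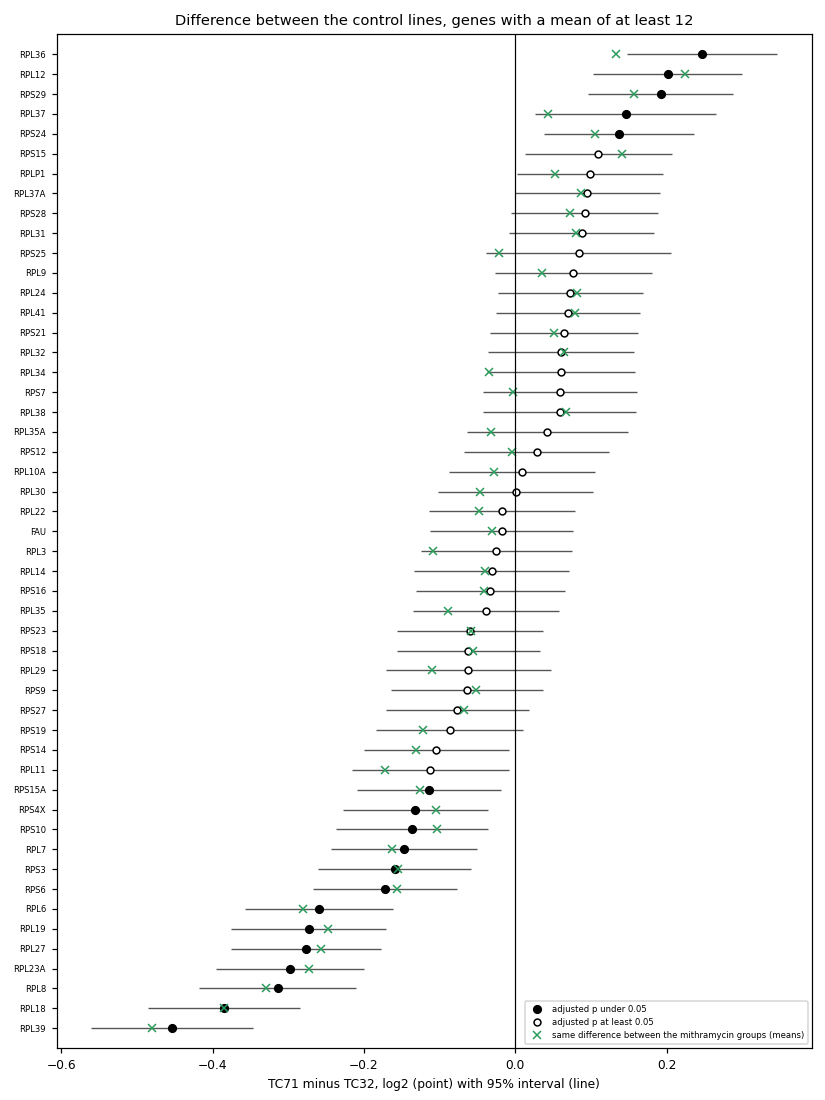
TC71 minus TC32 in log2 units (x axis) for the 50 genes averaging 12 or more (rows). Points with 95% intervals are the control arrays, filled where the adjusted p was under 0.05, and green crosses are the same difference of means between the mithramycin groups (n = 3 arrays per group). RPL39 and RPL18 lie furthest left and RPL36 furthest right, and RPL36 is the gene whose cross lies outside its interval.

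Dimmer probe sets of some of the same genes moved far more with mithramycin, most of them upward. Of the 53 genes, 33 had more than 1 set and 20 had 1. In a fit of all 54613 probe sets that are no controls, 2 of the 68 sets with a mean of at least 12 were called higher and 0 lower in the 2-line average, against 26.4% and 19% of all sets. Of the 38 less bright sets below 10, which belong to 26 genes, 18 were called higher and 4 lower. Which transcripts these dim sets detect (introns, other ends or other genes) was not tested.

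RPS29 had the largest gap. Its dim set, with a mean of 5.94, had 7.06, 6.72 and 6.87 with mithramycin against 5.07, 4.61 and 4.65 with solvent in TC32, and 7.09, 7.15 and 7.12 against 5.09, 5.01 and 4.89 in TC71. The groups were far apart in both lines, at 2.12 ± 0.08 or 4.34-fold in the mean (limma, adjusted p = 5.28e-10), while the bright set of RPS29 moved by 0.08. A dim set of RPS24, with a mean of 8.71, had 9.07, 9.16 and 9.06 with mithramycin against 8.40, 8.09 and 8.27 with solvent in TC32, and 9.42, 9.56 and 9.49 against 7.93, 8.03 and 8.03 in TC71. Its groups did not overlap, the mean effect was 1.17 ± 0.06 (adjusted p = 3.60e-09), and its bright set moved by 0.06.

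RPL37, of the large subunit, had 3 dim sets, and all rose. The brightest of them, with a mean of 8.16, had 8.96, 9.01 and 8.97 with mithramycin against 7.95, 7.85 and 7.95 with solvent in TC32, and 8.28, 8.33 and 8.40 against 7.48, 7.41 and 7.38 in TC71. Its mean effect was 0.99 ± 0.04 (limma, adjusted p = 1.60e-09), and the other 2 gave 0.80 ± 0.05 and 0.46 ± 0.05. The bright set of RPL37 gave 0.09 ± 0.04 and was not called. Dim sets of RPL35A, RPS15A and RPL31, named for size after their values were seen, rose by 0.66, 0.65 and 0.63.

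RPL37A, a zinc-binding protein of the large subunit, had dim sets that went opposite ways in TC32. Its dimmest set, with a mean of 7.59, had 7.00, 7.16 and 7.17 with mithramycin against 8.19, 8.07 and 8.14 with solvent in TC32, and 7.62, 7.51 and 7.59 against 7.42, 7.59 and 7.60 in TC71. The groups were apart in TC32 and overlapped in TC71. The effects were -1.02 ± 0.07 in TC32 (limma, adjusted p = 2.68e-07) and 0.04 ± 0.07 in TC71 (adjusted p = 0.771), and their difference of 1.06 ± 0.11 was called (adjusted p = 6.75e-05). The other dim set of RPL37A, with a mean of 8.45, rose by 0.36 in TC32 (limma, adjusted p = 0.0336), where its arrays overlapped. Its 2-line average of 0.20 was not called. The bright set of RPL37A stayed between 13.55 and 13.67 on all arrays. In all, 5 of the 112 sets were called for the difference, all higher in TC71, against 6.86% of all sets. The other 4 were sets of RPS24, RPS27 and RPS28 (2 sets).

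**Figure D4:**
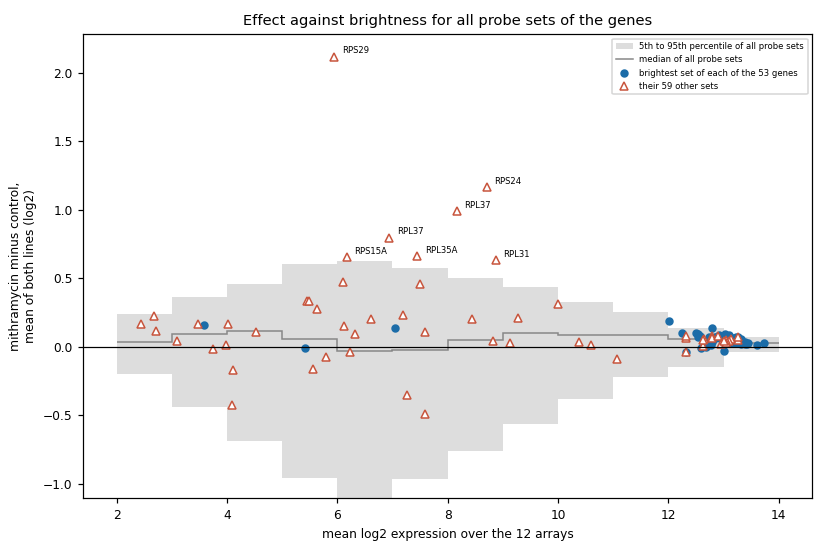
Mithramycin minus control in the 2-line average (y axis, log2) against mean log2 expression over the 12 arrays (x axis) for the brightest set of each of the 53 genes (blue points) and their 59 other sets (red triangles), over the 5th to 95th percentile (grey band) and median (grey line) of all probe sets. Bright sets cluster just above 0, and the widest effects belong to dim sets of RPS29, RPS24 and RPL37.

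Several genes that act on ribosomal protein mRNAs fell with mithramycin, and the median effect over the measured regulators was -0.38 in the 2-line average. The lists below were drawn up with earlier results of these data known, and each count is to be read against the 32.9% of all genes that rose, the 20.9% that fell and the median of 0.08. Of 14 measured regulators (15 listed), 9 fell (20.9% of all genes did) and 4 rose (32.9%) in the 2-line average. The 4, named after their values were seen, were the S6 kinases RPS6KB1 and RPS6KB2, the mTOR substrate EIF4EBP2 and the ETS factor GABPA, at 0.18 to 0.38. LARP1, which binds the TOP tract, averaged 10.47 ± 0.04 with mithramycin against 11.08 ± 0.05 with solvent in TC32 and 9.84 ± 0.02 against 10.48 ± 0.02 in TC71 (SD, n = 3 each). All 4 groups were tight, and LARP1 fell by 0.63 on the log2 scale in the mean (limma, adjusted p = 2.22e-08). Its relative LARP1B fell by 0.99, and RPTOR, the mTOR partner that binds substrates, fell by 0.69. MYC, a transcription factor that raises ribosomal protein genes in growing cells, averaged 9.21 ± 0.01 with mithramycin against 10.05 ± 0.01 with solvent in TC32 and 10.73 ± 0.05 against 11.35 ± 0.09 in TC71, and fell by 0.73 in the mean (adjusted p = 1.82e-08).

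Of 16 measured chaperones and export factors of ribosomal subunits, 7 fell and 5 rose, against 20.9% and 32.9% of all genes. RIOK1, an ATPase of late small-subunit maturation, averaged 7.88 ± 0.07 with mithramycin against 8.95 ± 0.11 with solvent in TC32 and 8.51 ± 0.06 against 9.15 ± 0.03 in TC71, and fell by 0.86 in the mean (limma, adjusted p = 1.65e-08). MDN1 and NVL, ATPases of large-subunit maturation, fell by 0.78 and 0.57. RIOK2, a kinase of the same late steps as RIOK1, rose by 0.64 ± 0.04. The paired factors RIOK1 and RIOK2 thus went opposite ways.

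Other mRNAs with a TOP tract, for translation factors and their like, had a median effect of 0.02, with 3 of 15 measured rising and 2 falling, against 32.9% and 20.9% of all genes. EIF3F rose by 0.17 and NAP1L1 by 0.12, while EIF4B and HNRNPA1 fell by 0.18 and 0.15. Of the 8 paralogs outside the naming rule, 6 rose and 1 fell, against 32.9% and 20.9% of all genes. RPS27L, a p53-inducible relative of RPS27, averaged 11.77 ± 0.03 with mithramycin against 11.41 ± 0.05 with solvent in TC32 and 10.87 ± 0.04 against 10.57 ± 0.03 in TC71, and rose by 0.33 (limma, adjusted p = 9.95e-06). RPL39L and RPL3L rose by 0.29 and 0.25, while RPL22L1, the paralog of RPL22, fell by 0.25. Of 75 genes for mitochondrial ribosomal proteins, which form the separate ribosome of that organelle, 42 rose and 9 fell, against 32.9% and 20.9% of all genes, with a median of 0.12 against 0.08. MRPL44 rose most, by 0.48 ± 0.05, followed by MRPL40 at 0.43 ± 0.04, MRPL52 and MRPL35 at 0.36 each.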

How the data were processed

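The authors deposited log2 values, 1 per probe set and array. RMA is named in the submitters' processing notes, with no version or settings, and the background correction and probe definition behind it are unknown here. Quantile normalization within RMA largely removes a shift shared by most genes. Of 54675 probe sets, 62 controls were left out. Of the rest 41091 had 1 symbol in the platform annotation, 1801 several and 11721 none, and symbols were updated through Entrez identifiers in a RefSeq table (GRCh38.p14, 41037 sets matched). No detection calls or scan dates were used. Since depth is not defined for arrays, their number limits the precision.

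All 12 arrays entered 1 limma 3.58.1 model in R 4.3.3 with a mean per group. Contrasts were mithramycin minus control in each line, their mean and difference, and TC71 control minus TC32 control. P-values are two-sided, adjusted over 19775 genes and called under 0.05. The fit was tested on simulated data. The genes and lists were chosen with earlier results of these data known. Genes described are those with the 8 largest called rises or falls, the 6 largest called differences of the effects (none was called), the 8 largest called line differences, fixed genes with known extra roles, the 3 highest and lowest means, the 4 with the most discordant probe sets, and 4 per related list. Alternatives covered the probe set choice, scaling, filter, prior, replicate block, beta-actin covariate, groups fitted and arrays left out.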

Additional observations from a re-analysis of the deposited data

Results flagged for a closer look

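For 8 of the probe sets or genes described above, the TC71 and TC32 effects of mithramycin differed in limma's test of the difference itself (TC71 effect minus TC32 effect). Of the 112 sets of ribosomal protein genes 5 were called for it, against 6.86% of all sets. Of the ribosomal protein genes' dim probe sets, the dimmest set of RPL37A differed by 1.06, the dim set of RPS24 by 0.64, that of RPS27 by 0.66, and the 2 dim sets of RPS28 by 0.43 (mean 7.26) and 0.45 (mean 5.56). The RPS27 set, with a mean of 3.75 below the array medians, rose by 0.32 in TC71 and had an effect of -0.35 in TC32 (both called). The brighter RPS28 dim set had an effect of -0.14 in TC71, which was not called, and fell by 0.57 in TC32. The brightest sets of these genes were not called for the difference.

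Among related genes, 1 of 15 other TOP mRNAs, 1 of 14 regulators and 2 of 16 chaperones and export factors were called for the difference. So were 2 of 75 genes for mitochondrial ribosomal proteins, against 9.99% of all genes. Only those already named above are described here. HNRNPA1, which encodes an RNA-binding protein with a TOP mRNA, differed by 0.39, with effects of 0.04 in TC71 and -0.35 in TC32. RIOK1 differed by 0.43 and fell in both lines, by 0.64 in TC71 and by 1.07 in TC32. MRPL35 differed by -0.26 and rose in both lines, by 0.23 in TC71 and by 0.49 in TC32.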

How the results depend on the processing

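Counts are of ribosomal protein genes, in the order TC32, TC71 and 2-line average for higher calls with mithramycin (3, 1 and 9 as reported, 0 lower in each), and higher and lower in TC71 controls against TC32 controls (5 and 14). With the mean of a gene's probe sets they were 14, 10 and 17 higher, 4 lower in TC32 and 2 lower in the average, 3 called for the difference of the effects, and 3 and 26 between controls. Without sets of the _x_at and _s_at kind they were 8 in TC32 and 7 in TC71, with 5 lower in TC32, 3 lower in the average, 4 called for the difference and 2 higher between controls. Centred on housekeeping genes they were 1, 0 and 0 higher, 2 lower in TC71 and 3 lower in the average, and 35 and 3 between controls. Of all genes 14.6%, 9.21% and 16.7% were then higher, with 21.5% lower in TC71 and 27.5% lower in the average. Between controls 45.4% were higher and 14.9% lower. Centred on hybridization controls they were 0, 0 and 0, and 3 and 5, against 5.83%, 21.7% and 18.4%, and 26.6% and 17.7%, of all genes. Quantile normalization run again gave 0 in TC71 and 5 in the average. A minimum mean of 6 gave 10, 5 and 20 of 51 tested, and 10 higher between controls. Of the 8386 genes tested there, 35.4%, 33.1% and 39.8% were higher, and 44.0% between controls. A prior trend with robust estimation gave 24, 12 and 28, 1 lower for the difference, and 18 and 22 between controls. The shares of all genes were 25.9%, 20.3% and 32.5%, 5.23% lower for the difference, and 27.2% and 24.6% between controls. A beta-actin 3′ minus 5′ covariate gave 0 in TC71 and 3 in the average, and 1 and 9 between controls. Fitting only the groups compared gave 1, 0 and 3 higher in TC32, TC71 and TC71 controls. Adding sets that also name snoRNA or microRNA genes, an alternative chosen after seeing the data, gave 1 lower in TC32 and in the average, and 9 higher between controls. Where no share of all genes is given, none was taken. The cause of these shifts was not tested.

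Over all genes, same-numbered arrays correlated from -0.07 to 0.24 in their deviations, which cannot settle whether replicate numbers pair the samples. The median of the ribosomal protein genes was highest in replicate 2 and lowest in replicate 1 of every group. It was 13.048 and 13.035 in TC32 with mithramycin, and 13.033 and 12.957 in TC32 controls. In TC71 it was 13.084 and 13.039 with mithramycin, and 13.048 and 13.018 in controls. The replicate block left 5 genes in the average. Without 1 array at a time, TC32 kept 2 to 5 calls (5 without TC32 control replicate 2), TC71 0 to 1, the average 4 to 8 (4 without TC32 mithramycin replicate 3, TC71 control replicate 2 or TC71 mithramycin replicate 3, and 5 without TC32 control replicate 1 or 3 or TC71 control replicate 3), and the control lines 3 to 5 higher (3 without TC32 control replicate 3 or TC71 control replicate 1 or 3) and 10 to 16 lower. The TC71 call was lost without any TC32 control, TC32 mithramycin replicate 3, TC71 control replicate 1 or 2, or TC71 mithramycin replicate 1 or 3.

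Housekeeping centring reversed line differences to 0.197 for FAU and RPL22, 0.176 for RPL35, 0.043 for RPS6, 0.055 for RPS3, 0.128 for RPS19, 0.138 for RPS27 and 0.152 for RPS18, and average effects to -0.003 for RPS7, -0.005 for RPL32, -0.014 for RPL35 and -0.015 for RPS29. With the mean of probe sets, and then without _x_at and _s_at sets, RPL37A became -0.095 and -0.493 in the average. In the same order the line differences became -0.29 and -0.595 for RPL37A, -0.06 and -0.256 for RPS24, and -0.238 and -0.494 for RPL37.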
